A study of Mus musculus with 14 samples.

Results

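The T cell antigen receptor genes described here are the CD3 chain genes Cd3d, Cd3e, Cd3g and Cd247, the co-receptor genes Cd4, Cd8a and Cd8b1, the signalling genes Zap70 and Lat and the T cell surface gene Thy1. They are 10 of 10254 genes measured and were chosen by name. All 16 probe sets that name 1 of these genes and no other were used, and no probe set named one of them together with another gene. RNA came from thymic lymphomas of 14 mice, with 1 expression array per tumour: 5 Hif1a+/- tumours, 4 Hif1aKI/+ tumours and 5 Hif1a+/+ tumours. Every mouse, the Hif1a+/+ ones included, was homozygous for p53 R270H in a mixed strain (C57BL/6-129/SvEvTac), and tissue was taken once breathing became laboured. What the knock-in (KI) allele carries, and the age and sex of the mice, are not given in the labels, so the Hif1aKI/+ group is described by its label alone.

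On the surface of a T cell, the alpha and beta chains that recognise antigen are held in a complex with the CD3 gamma, delta and epsilon chains and a zeta chain dimer, encoded by Cd3g, Cd3d, Cd3e and Cd247. CD4 and CD8 are co-receptors that bind MHC molecules and bring the kinase Lck to the complex, CD8 being a dimer of the products of Cd8a and Cd8b1. Phosphorylated CD3 and zeta chains recruit the kinase ZAP-70, which phosphorylates the membrane adaptor LAT. Thymocytes first lack both co-receptors, then carry both, and then keep only CD4 or only CD8 as they mature.

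Values are log2 probe set summaries, so a difference of 1 is a change by a factor of 2 in signal. Signals of different probe sets cannot be set against each other, and each gene is compared only with itself across tumours. The distribution of all values has a low mode of probe sets without signal, bounded at 4.41, and a level below that boundary is called background. Array medians lay between 7.91 and 8.03. In bulk tumour RNA, fewer cells of a type and less RNA per cell cannot be told apart. The limma p-values set a difference of genotype means against the spread between tumours of the same genotype. Permutation p-values set a correlation against those obtained with the tumours shuffled. Each tumour is called by its genotype and the replicate number of its label.

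Hif1a itself, at its probe set of highest mean, was 12.54, 12.24, 12.47, 12.82 and 12.68 in Hif1a+/- tumours 1 to 5, 12.25, 12.14, 11.94 and 11.75 in Hif1aKI/+ tumours 1, 3, 4 and 5, and 12.60, 13.04, 12.45, 12.44 and 12.85 in Hif1a+/+ tumours 1 to 5. The Hif1a+/- and Hif1a+/+ levels overlapped (difference -0.13, limma adjusted p = 0.857), and the Hif1aKI/+ levels lay below all Hif1a+/+ levels without passing (difference -0.66, adjusted p = 0.984). Where the probe set lies relative to the altered part of the gene is not known here, so these levels do not check the labels.

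The tissue carried T cell RNA in every tumour. The probe sets that stand for the 10 genes were above background in all 14 tumours. Cd3d, for the CD3 delta chain, was between 13.34 and 14.39. Thy1, a surface glycoprotein of mouse thymocytes, was between 14.01 and 14.52. The T cell list with 7 measured markers had a mean level of 11.09 to 12.27 in Hif1a+/- tumours, 11.85 to 12.01 in Hif1aKI/+ tumours and 11.57 to 12.06 in Hif1a+/+ tumours. That list shares Cd3d, Cd3e, Cd3g and Thy1 with the genes described here, and its member Cd5, a surface receptor that dampens receptor signals, was at background in 1 tumour. RNA of B cell genes was mixed. Cd79a, for a signalling chain of the B cell receptor, was at background in 13 of 14 tumours, Ms4a1 in 10, Cd79b in 7 and Ebf1 in 3, while the adaptor gene Blnk (4.42 to 8.24) and Cd22 (5.75 to 8.24) were above it in all 14.

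The CD4 and CD8 state of the lymphomas, called by the distance from each gene's highest tumour, differed mainly in Cd4. Cd8a was high in all 14 tumours and Cd8b1 in 13, while Cd4 ran over a 13.5-fold range, so that the tumours formed a series with CD8 RNA present throughout and Cd4 RNA from high to low. For this description a level was called low when it lay above background but more than 2 (log2) below the highest tumour of the series, and high otherwise. Cd4 was then high in 7 tumours (3 Hif1a+/-, 1 Hif1aKI/+ and 3 Hif1a+/+) and low in 7 (2 Hif1a+/-, 3 Hif1aKI/+ and 2 Hif1a+/+). No tumour was at background for Cd4, Cd8a or Cd8b1. The levels formed no clear break at that limit: Hif1aKI/+ tumour 1 lay 1.996 below the highest tumour and Hif1aKI/+ tumour 3 lay 2.001 below it. With the limit at 3, 2 tumours were low for Cd4, 1 Hif1a+/- and 1 Hif1a+/+. With the mean of both Cd4 probe sets 11 were low (2 Hif1a+/-, 4 Hif1aKI/+ and 5 Hif1a+/+), and the 3 high tumours were all Hif1a+/-. The split by genotype thus depended on the rule.

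Cd4, at its probe set of higher mean, was 12.44, 10.57, 11.69, 9.22 and 12.86 in Hif1a+/- tumours 1 to 5. It was 10.86, 10.85, 10.08 and 10.65 in Hif1aKI/+ tumours 1, 3, 4 and 5, and 9.10, 10.17, 10.95, 11.28 and 11.31 in Hif1a+/+ tumours 1 to 5. The highest and the second lowest tumour of the series both lay in the Hif1a+/- group, which enclosed all Hif1aKI/+ values, and the lowest lay in the Hif1a+/+ group. The second Cd4 probe set was 5.93, 3.08, 6.47, 2.75 and 8.94 in Hif1a+/- tumours 1 to 5. It was 3.06, 2.92, 2.94 and 3.11 in Hif1aKI/+ tumours 1, 3, 4 and 5, and 2.08, 2.81, 5.45, 6.32 and 4.15 in Hif1a+/+ tumours 1 to 5. It was at background in 9 of 14 tumours, among them all 4 Hif1aKI/+ tumours, and above it in Hif1a+/- tumours 1, 3 and 5 and Hif1a+/+ tumours 3 and 4. Both probe sets ordered the tumours much alike (Pearson r = 0.86, permutation p = 2e-05; Spearman rho = 0.91, permutation p = 3e-05, n = 14; adjusted over 9 such pairs 6e-05 and 0.000135).

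**Figure D1:**
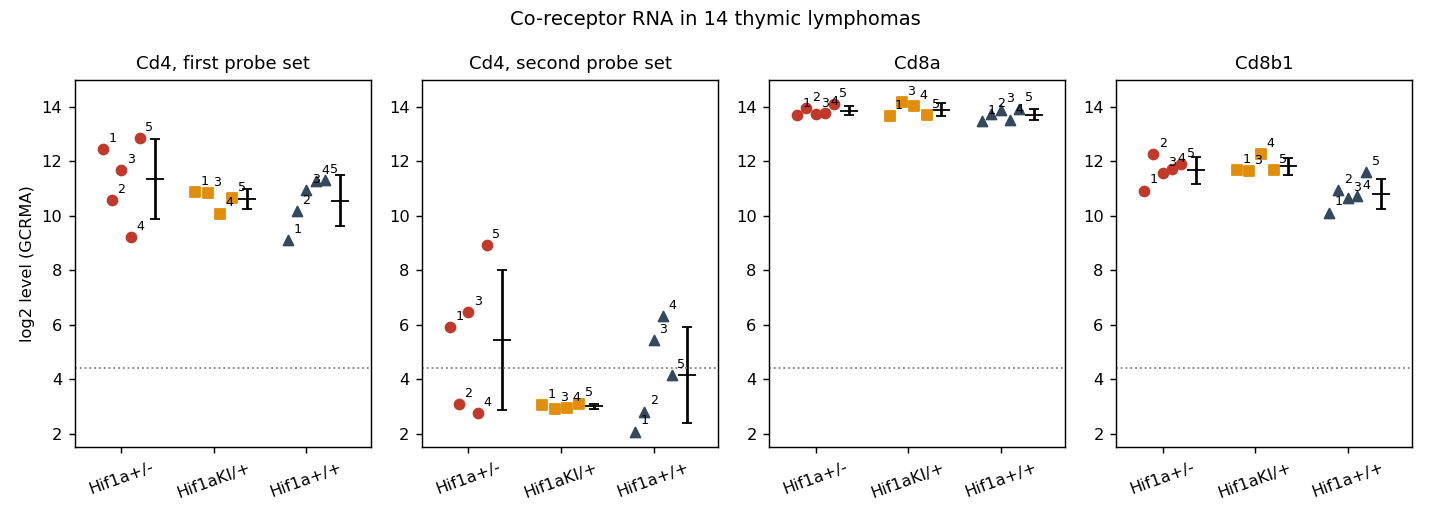
Log2 level (vertical axis) of both Cd4 probe sets, Cd8a and Cd8b1 in each tumour, numbered by replicate, by genotype (horizontal axis), with the mean and SD of each genotype in black and the background boundary of 4.41 dotted. Cd4 spreads from 9.10 to 12.86 at its first probe set, while Cd8a stays within 0.69 across all 14 tumours.

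Cd8a, the chain found in every form of CD8, was 13.72, 13.96, 13.75, 13.79 and 14.10 in Hif1a+/- tumours 1 to 5. It was 13.67, 14.18, 14.04 and 13.71 in Hif1aKI/+ tumours 1, 3, 4 and 5, and 13.49, 13.73, 13.90, 13.51 and 13.94 in Hif1a+/+ tumours 1 to 5. The 3 groups overlapped, and the whole series spanned 0.69. The second Cd8a probe set kept nearly the same order (Pearson r = 0.97, permutation p = 1e-05, the smallest these permutations can give; Spearman rho = 0.96, permutation p = 1e-05, n = 14; adjusted over 9 pairs 4.5e-05 and 9e-05) but spanned 1.83, from 10.08 to 11.92. The size of a difference in Cd8a thus depended on the probe set.

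Cd8b1, the chain that pairs with CD8 alpha on thymocytes and conventional CD8 T cells, was 10.93, 12.28, 11.58, 11.71 and 11.89 in Hif1a+/- tumours 1 to 5. It was 11.68, 11.64, 12.27 and 11.67 in Hif1aKI/+ tumours 1, 3, 4 and 5, and 10.12, 10.95, 10.65, 10.73 and 11.62 in Hif1a+/+ tumours 1 to 5. All 4 Hif1aKI/+ tumours lay above the highest Hif1a+/+ tumour, the closest values being 11.64 in Hif1aKI/+ tumour 3 and 11.62 in Hif1a+/+ tumour 5. Hif1a+/- tumours 1 and 3 lay below Hif1a+/+ tumour 5. Hif1a+/+ tumour 1 was the one tumour called low for Cd8b1, at 2.16 below the highest, and was also the lowest of the series for Cd4 and Cd8a.

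The CD3 gamma, delta and epsilon chains are encoded side by side, Cd3g and Cd3d facing away from each other and Cd3e next to Cd3d on mouse chromosome 9. Their promoters are shown because the levels of Cd3d and Cd3g varied together across the tumours, as given after the sequences. Of the 10 genes 7 had at least 1 entry in the RefSeq promoter table of build GRCm38.p6, which holds 250 bases before and 50 after a transcript start. Capitals mark 2 motifs searched on both strands: CANNTG, the E-box read by E proteins such as Tcf12, and CTTTGA, a core read by Tcf7 and Lef1. No base fell in both motifs.
Cd3g promoter (chr9:44980382-44980681, minus strand): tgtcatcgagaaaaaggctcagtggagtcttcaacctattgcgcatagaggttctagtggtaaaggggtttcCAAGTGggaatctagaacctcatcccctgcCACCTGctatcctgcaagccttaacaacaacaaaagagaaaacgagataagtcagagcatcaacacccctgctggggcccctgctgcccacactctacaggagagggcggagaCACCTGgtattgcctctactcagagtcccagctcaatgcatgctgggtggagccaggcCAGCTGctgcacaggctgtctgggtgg
Cd3d promoter (chr9:44981536-44981835, plus strand): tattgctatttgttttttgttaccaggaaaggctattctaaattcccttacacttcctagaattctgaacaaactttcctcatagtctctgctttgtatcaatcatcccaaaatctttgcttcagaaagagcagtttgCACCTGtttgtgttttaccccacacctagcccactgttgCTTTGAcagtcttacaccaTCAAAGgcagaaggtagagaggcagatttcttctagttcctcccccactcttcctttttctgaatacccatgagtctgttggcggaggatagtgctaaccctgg
Cd3e promoter (chr9:45009562-45009861, minus strand): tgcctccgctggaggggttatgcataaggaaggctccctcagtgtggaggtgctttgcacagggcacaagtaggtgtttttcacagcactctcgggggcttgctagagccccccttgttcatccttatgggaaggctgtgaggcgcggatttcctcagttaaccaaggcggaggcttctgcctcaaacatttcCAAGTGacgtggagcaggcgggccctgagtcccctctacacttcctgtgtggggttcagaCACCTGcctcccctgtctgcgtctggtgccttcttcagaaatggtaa

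The Cd3g and Cd3d windows lie 854 bases apart. The Cd3g window held 4 E-boxes and the Cd3e window 2, both with 0 matches to CTTTGA. The Cd3d window held 1 E-box and 2 matches to CTTTGA. Over all 32851 windows of the table, 72.3% had an E-box and 6.49% had at least 4, while 16% had CTTTGA and 1.73% had at least 2. A match describes the letters of the window and shows no binding in these tumours.

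Cd3d was 14.03, 14.13, 14.13, 13.90 and 14.04 in Hif1a+/- tumours 1 to 5. It was 13.78, 13.75, 14.33 and 13.92 in Hif1aKI/+ tumours 1, 3, 4 and 5, and 13.34, 13.93, 13.87, 13.84 and 14.39 in Hif1a+/+ tumours 1 to 5. The Hif1a+/+ group held both the lowest and the highest tumour, and the Hif1a+/- tumours lay close together between them. Cd3g was 12.88, 12.77, 13.09, 12.57 and 12.88 in Hif1a+/- tumours 1 to 5. It was 12.45, 12.58, 13.28 and 12.69 in Hif1aKI/+ tumours 1, 3, 4 and 5, and 12.20, 12.80, 12.04, 12.38 and 13.47 in Hif1a+/+ tumours 1 to 5. Hif1a+/+ tumour 5 and Hif1aKI/+ tumour 4 were the 2 highest tumours for both genes. Cd3d and Cd3g were correlated over the 14 tumours (Pearson r = 0.85, permutation p = 0.00019, adjusted over 7 pairs 0.00133; Spearman rho = 0.87, permutation p = 0.00011, adjusted 0.00077). The correlation was 0.80 without the 2 tumours farthest from the Cd3d median.

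Cd3e, the chain needed for assembly of every CD3 complex, was 12.91, 12.05, 12.99, 12.32 and 13.13 in Hif1a+/- tumours 1 to 5. It was 12.82, 12.75, 13.34 and 13.05 in Hif1aKI/+ tumours 1, 3, 4 and 5, and 12.85, 12.91, 12.91, 12.87 and 13.48 in Hif1a+/+ tumours 1 to 5. Hif1a+/- tumours 2 and 4 lay below all others, whereas their Cd3d and Cd3g levels were within the range of the series. Over all tumours Cd3e and Cd3d did not pass as correlated (Pearson r = 0.33, permutation p = 0.235, adjusted 0.548; Spearman rho = 0.59, permutation p = 0.0284, adjusted 0.0775). Those 2 tumours were the farthest from the Cd3e median, and without them r was 0.81.

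**Figure D2:**
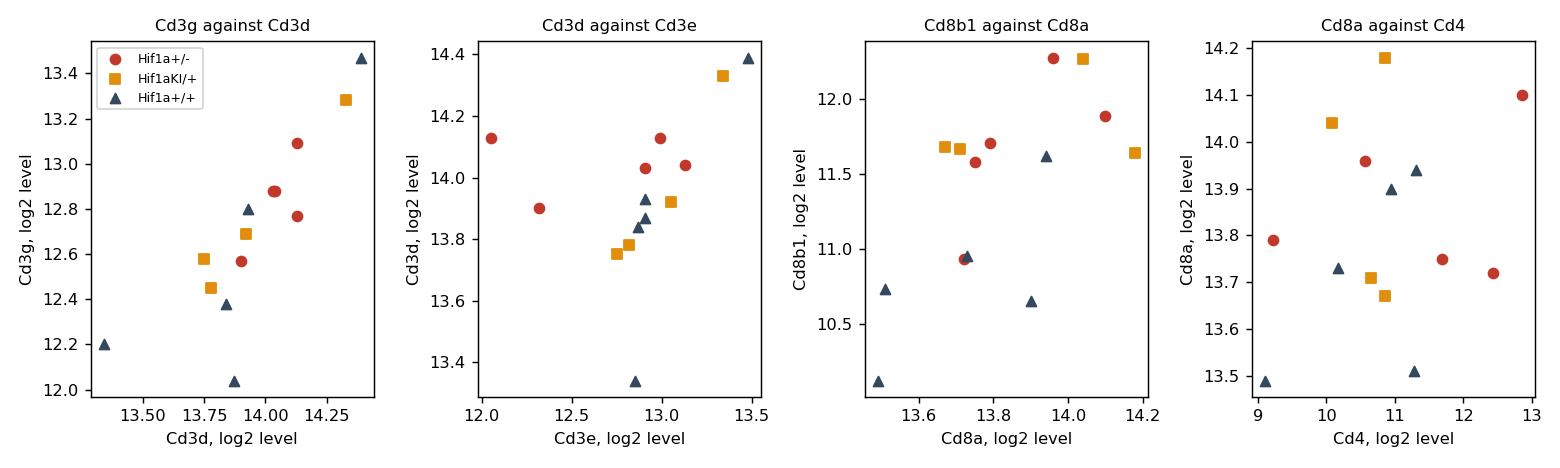
Log2 levels of pairs of genes, 1 point per tumour, marked by genotype: Cd3g against Cd3d, Cd3d against Cd3e, Cd8b1 against Cd8a and Cd8a against Cd4. Cd3d and Cd3g vary together (r = 0.85), 2 Hif1a+/- tumours with low Cd3e stand apart in the Cd3d and Cd3e plot, and Cd8a shows no clear relation with Cd4 (r = 0.27).

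Cd247, whose zeta chain carries most of the signalling motifs of the complex, had 4 probe sets. The one of highest mean was 10.64, 11.57, 10.69, 10.34 and 11.03 in Hif1a+/- tumours 1 to 5. It was 10.97, 10.25, 10.92 and 11.27 in Hif1aKI/+ tumours 1, 3, 4 and 5, and 10.52, 10.52, 9.94, 10.33 and 10.85 in Hif1a+/+ tumours 1 to 5. Hif1a+/- tumour 2, low for Cd3e, was the highest for Cd247. The second probe set followed the first (Pearson r = 0.91, permutation p = 1e-05; Spearman rho = 0.86, permutation p = 0.00015; adjusted over 9 pairs 4.5e-05 and 0.00045), with the larger range of 6.99 to 9.90. The 2 probe sets of lowest mean followed each other (Pearson r = 0.63, permutation p = 0.0161; Spearman rho = 0.71, permutation p = 0.00647; adjusted 0.0362 and 0.0146), but their correlations with the first did not pass (r = 0.36 and 0.06, permutation p = 0.205 and 0.835; adjusted 0.307 and 0.835). The one of lowest mean ran from 3.94 to 7.06 and was at background in 3 tumours. Cd3e and Cd247 showed no correlation over the tumours that passed (Pearson r = -0.07, permutation p = 0.824, adjusted 0.824; Spearman rho = 0.28, permutation p = 0.335, adjusted 0.548), and r was 0.50 without Hif1a+/- tumours 2 and 4.

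Zap70, the kinase recruited to the phosphorylated complex, was 10.16, 10.75, 10.36, 10.25 and 10.19 in Hif1a+/- tumours 1 to 5. It was 10.45, 10.21, 9.50 and 10.88 in Hif1aKI/+ tumours 1, 3, 4 and 5, and 10.63, 9.95, 10.15, 10.22 and 10.19 in Hif1a+/+ tumours 1 to 5. The Hif1aKI/+ group held both the highest and the lowest tumour, tumours 5 and 4. A second Zap70 probe set, between 4.25 and 7.76, did not order the tumours the same way (Pearson r = -0.28, permutation p = 0.330; Spearman rho = -0.20, permutation p = 0.489; adjusted over 9 pairs 0.424 and 0.543). The Zap70 values therefore stand for the first probe set alone.

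**Figure D3:**
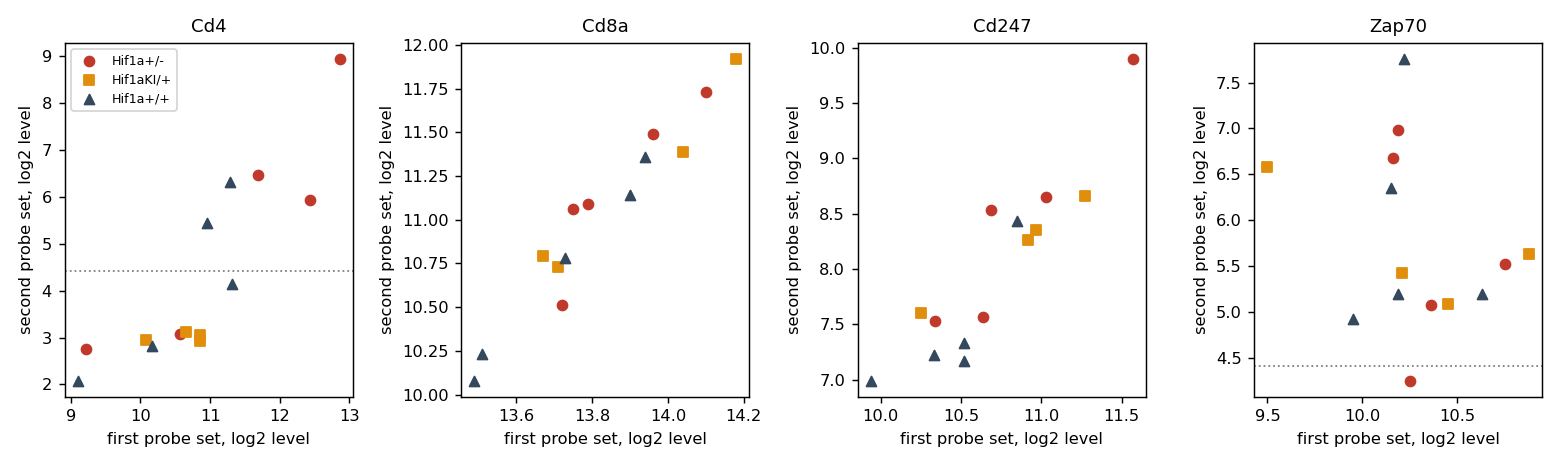
First against second probe set, ranked by mean, of Cd4, Cd8a, Cd247 and Zap70 in log2 levels, 1 point per tumour marked by genotype, with the background boundary of 4.41 dotted where values come near it. The pairs agree in order for Cd4 (r = 0.86), Cd8a (r = 0.97) and Cd247 (r = 0.91) and not for Zap70 (r = -0.28).

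Lat, the adaptor phosphorylated by ZAP-70, was 13.21, 12.83, 13.46, 13.21 and 12.96 in Hif1a+/- tumours 1 to 5. In Hif1aKI/+ tumours 1, 3, 4 and 5 it was 13.50, 13.21, 12.86 and 13.13, and in Hif1a+/+ tumours 1 to 5 it was 12.82, 13.06, 12.99, 12.95 and 13.45. The 3 groups covered nearly the same range. Zap70 and Lat were not correlated past the threshold (Pearson r = 0.07, permutation p = 0.821, adjusted 0.824; Spearman rho = 0.02, permutation p = 0.940, adjusted 0.940). Thy1 was 14.08, 14.20, 14.15, 14.01 and 14.21 in Hif1a+/- tumours 1 to 5, 14.06, 14.52, 14.23 and 14.28 in Hif1aKI/+ tumours 1, 3, 4 and 5, and 14.17, 14.09, 14.30, 14.12 and 14.18 in Hif1a+/+ tumours 1 to 5. It was the most even of the 10 genes, and Thy1 and Cd3e showed no correlation that passed (Pearson r = 0.14, permutation p = 0.623, adjusted 0.824; Spearman rho = 0.25, permutation p = 0.391, adjusted 0.548).

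The pooled spread between tumours of the same genotype set Cd4 apart from the rest, at the probe sets that stand for the genes. Its pooled within-genotype SD was 1.07, above that of 87.3% of the 7332 genes whose mean lay above background. By group the Cd4 SD was 1.48 in Hif1a+/-, 0.37 in Hif1aKI/+ and 0.94 in Hif1a+/+ tumours. Within the Hif1aKI/+ group Zap70 (0.58) and Cd247 (0.43) varied more than Cd4. Cd8b1 had an SD of 0.47, above that of 51.0% of them. The SD of the other 8 genes lay between 0.12 (Thy1) and 0.41 (Cd3g and Cd247), all under the median of 0.47 over those genes. Cd8a, at 0.21, was above 8.10% of the genes and Thy1 above 1.70%. These are descriptions, and since the 2 Cd8a probe sets spanned 0.69 and 1.83, a small SD at a high level depends on the probe set. The second Zap70 probe set had SDs of 1.13, 0.64 and 1.19 in Hif1a+/-, Hif1aKI/+ and Hif1a+/+ tumours. The Cd247 probe set of lowest mean had 1.05, 1.36 and 0.97.

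**Figure D4:**
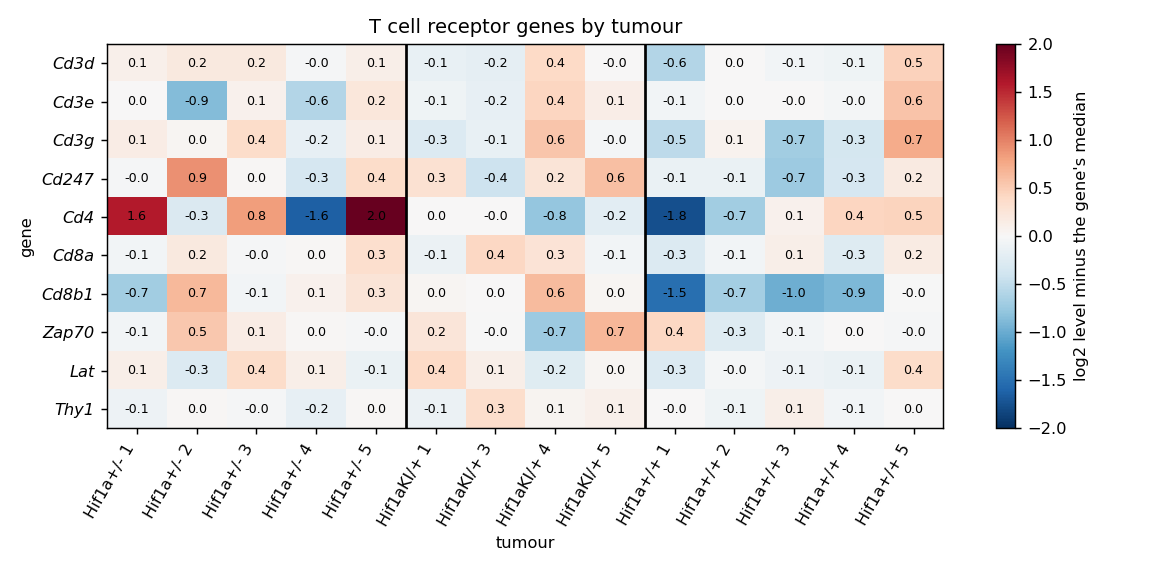
Difference of each tumour's log2 level from the gene's median over 14 tumours, genes in rows and tumours in columns by genotype, red above and blue below the median. The widest departures are those of Cd4, from -1.76 in Hif1a+/+ tumour 1 to 2.0 in Hif1a+/- tumour 5, and of Cd8b1, at -1.51 in Hif1a+/+ tumour 1.

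Cd8a and Cd8b1, whose products form 1 co-receptor, were correlated (Pearson r = 0.66, permutation p = 0.00984, adjusted over 7 pairs 0.0344; Spearman rho = 0.58, permutation p = 0.0332, adjusted 0.0775), with r = 0.70 without the 2 tumours farthest from the Cd8a median. With genotype means subtracted r was 0.58 and did not pass (adjusted permutation p = 0.105), and the Spearman value did not pass after adjustment. The call was lost for 8 of the 14 tumours left out in turn (Hif1a+/- tumours 1, 2 and 5, Hif1aKI/+ tumour 4 and Hif1a+/+ tumours 1, 2, 4 and 5), with r between 0.55 and 0.66 and an adjusted permutation p of 0.0522 to 0.184. Cd4 and Cd8a were not correlated past the threshold (Pearson r = 0.27, permutation p = 0.356, adjusted 0.623; Spearman rho = 0.14, permutation p = 0.624, adjusted 0.728). For Cd3d and Cd3g, r with genotype means subtracted was 0.84 (adjusted permutation p = 0.00161).

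Hif1a+/- tumours were set against Hif1a+/+ tumours for the effect of having 1 Hif1a allele altered. None of the 10 genes passed in the limma fit over all genes (adjusted p = 0.517 to 0.958), where 0.0195% of all genes were called. At an unadjusted p under 0.05 stood 1 of the 10, Cd8b1, against 7.94% of all genes. Cd8b1 averaged 11.68 ± 0.50 in Hif1a+/- tumours and 10.82 ± 0.54 in Hif1a+/+ tumours (SD, n = 5 each), a log2 difference of 0.86 (SE 0.29, 95% interval 0.229 to 1.496, limma unadjusted p = 0.0119, adjusted p = 0.517). Cd4 averaged 11.35 ± 1.48 in Hif1a+/- tumours and 10.56 ± 0.94 in Hif1a+/+ tumours (SD, n = 5 each), and its difference of 0.79 had a wide interval of -0.64 to 2.23 (adjusted p = 0.776). The second Cd4 probe set gave 1.27 (interval -1.25 to 3.78, adjusted p = 0.809), with its Hif1a+/+ mean of 4.17 at background. The remaining 8 genes differed by -0.32 (Cd3e) to 0.42 (Cd247). The second Cd247 probe set gave 1.01 (interval 0.05 to 1.97, unadjusted p = 0.0413, adjusted p = 0.649), and the second Cd8a probe set 0.46 where the first gave 0.15. Of the 10 differences 8 were above 0, as were 46.2% over all genes, with a median of 0.16 beside -0.00 over all genes, and 0 of the 10 had groups that did not overlap, against 1.47% of all genes.

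Hif1aKI/+ tumours were set against the same 5 Hif1a+/+ tumours for the effect of the KI allele, so both comparisons share these. None of the 10 genes passed (limma adjusted p = 0.984 to 0.9998), nor did any gene of the array (0%). Cd8b1 averaged 11.81 ± 0.31 (SD, n = 4) in Hif1aKI/+ tumours and 10.82 ± 0.54 (SD, n = 5) in Hif1a+/+ tumours, a log2 difference of 0.997 (SE 0.31, 95% interval 0.33 to 1.67, limma unadjusted p = 0.00724, adjusted p = 0.984). It was the 1 gene of the 10 at an unadjusted p under 0.05, against 4.35% of all genes, and the 1 whose groups did not overlap, against 1.76%. Cd4 averaged 10.61 ± 0.37 (SD, n = 4) in Hif1aKI/+ tumours and 10.56 ± 0.94 (SD, n = 5) in Hif1a+/+ tumours, a difference of 0.05 with an interval of -1.47 to 1.57 (adjusted p = 0.9998). The second Cd4 probe set gave -1.16 (SE 1.22, adjusted p = 0.9999 over all probe sets), with the Hif1aKI/+ mean of 3.01 and the Hif1a+/+ mean of 4.17 both at background, so the sign of the Cd4 difference turned with the probe set. The remaining 8 genes differed by -0.01 (Cd3e) to 0.42 (Cd247). The second probe sets of Cd247 and Cd8a gave 0.79 and 0.49 (adjusted p = 0.9999 for both), and the Cd247 probe set ranked 3 by mean gave -0.19. Of the 10 differences 9 were above 0, as were 47.7% over all genes, with a median of 0.11 beside -0.00 over all genes.

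Between Hif1a+/- and Hif1aKI/+ tumours none of the 10 genes passed (limma adjusted p = 1 for each), at a background of 0% of all genes. None stood at an unadjusted p under 0.05, where 3.06% of all genes did, and none had groups that did not overlap, where 0.673% did. Cd8b1 differed by -0.13, with an interval of -0.81 to 0.54, and Cd4 by 0.74, with an interval of -0.78 to 2.26. The second Cd4 probe set gave 2.43 (interval -0.24 to 5.09, unadjusted p = 0.0708, adjusted p = 1), with its Hif1aKI/+ mean at background, and the mean of both probe sets gave 1.58. For Cd8a the interval was -0.33 to 0.26, for Lat -0.39 to 0.31 and for Thy1 -0.32 to 0.04, narrower than that of Cd4. The second Cd8a probe set had a wider interval of -0.78 to 0.72. Of the 10 differences 5 were above 0, as were 46.9% over all genes. In the moderated F test of any difference between the 3 genotypes, 1 of the 10 (Cd8b1, unadjusted p = 0.0120, adjusted p = 0.893) stood at an unadjusted p under 0.05, against 5.43% of all genes, and 0 passed, as for all genes (0%). The Cd247 probe set ranked 3 by mean differed by 0.80 (SE 0.36, unadjusted p = 0.0447, adjusted p = 1), where the first differed by 0.00246.

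**Figure D5:**
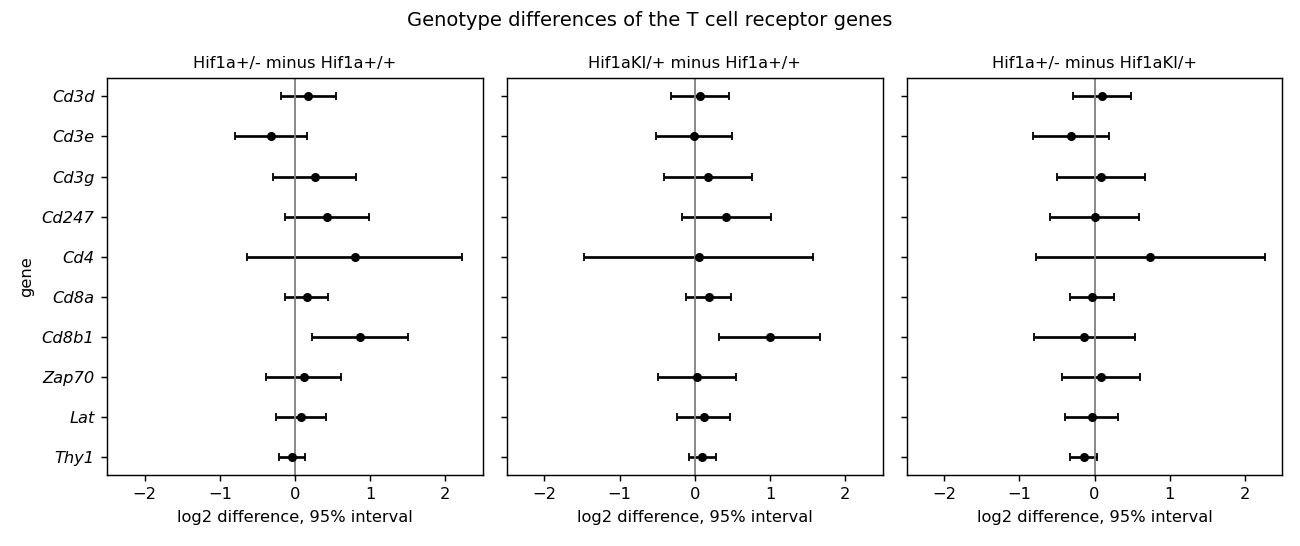
Log2 difference of genotype means from the limma fit, with 95% intervals, for the 10 genes (rows) in the 3 comparisons (panels). The intervals of Cd8b1 lie above 0 in both comparisons with Hif1a+/+ tumours (0.229 to 1.496 and 0.33 to 1.67) and its adjusted p-values of 0.517 and 0.984 do not pass, while the Cd4 intervals are the widest of the 10.

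Markers of other cells are given beside the Cd8b1 values. The fibroblast list (7 of 7 measured) had a mean level of 7.77 to 9.05 in Hif1a+/- tumours, 8.63 to 9.34 in Hif1aKI/+ tumours and 9.08 to 10.52 in Hif1a+/+ tumours, with Lum at background in all 14 and Col1a1 between 11.33 and 13.41. The macrophage and dendritic cell list (10 of 10 measured) had 8.43 to 9.24 in Hif1a+/- tumours, 8.41 to 9.91 in Hif1aKI/+ tumours and 8.84 to 10.70 in Hif1a+/+ tumours. Its macrophage receptor gene Csf1r lay between 12.45 and 13.89. Of the same list Cd163 was at background in 11 tumours, Cd14 in 5 and Itgax in 1, and the rest were above it in all 14. All 5 Hif1a+/+ tumours lay above all 5 Hif1a+/- tumours for the fibroblast list, but barely. The closest values were 9.08 in Hif1a+/+ tumour 4 and 9.05 in Hif1a+/- tumour 2. For every other list these genotypes overlapped. Among single genes, 1.47% had Hif1a+/- and Hif1a+/+ levels that did not overlap. The part of fibroblasts, macrophages and dendritic cells in the Cd8b1 difference was not tested. The thymic epithelial list (6 of 8 measured) had 6.18 to 8.66 in Hif1a+/- tumours, 7.19 to 8.89 in Hif1aKI/+ tumours and 3.48 to 7.94 in Hif1a+/+ tumours. NK cells and gamma delta T cells also use the zeta chain and ZAP-70. The list of genes of these cells (5 of 8 measured) had 7.15 to 8.29 in Hif1a+/- tumours, 6.70 to 8.54 in Hif1aKI/+ tumours and 6.63 to 7.99 in Hif1a+/+ tumours, with the NK receptor gene Klrk1 at background in all 14 and Sox13 in 7. The granzyme gene Gzma (10.31 to 14.13), the perforin gene Prf1 (6.12 to 7.75) and the adaptor gene Tyrobp (11.14 to 13.21) of that list were above background in every tumour. The B cell list (6 of 8 measured) had 4.19 to 6.66 in Hif1a+/- tumours, 5.05 to 6.46 in Hif1aKI/+ tumours and 4.10 to 5.77 in Hif1a+/+ tumours. The adipocyte list (5 of 7) had 5.48 to 6.94 in Hif1a+/- tumours, 5.94 to 7.30 in Hif1aKI/+ tumours and 5.78 to 10.20 in Hif1a+/+ tumours. The endothelial list (6 of 6) had 4.15 to 5.57 in Hif1a+/- tumours, 4.21 to 5.38 in Hif1aKI/+ tumours and 4.66 to 5.73 in Hif1a+/+ tumours. Its members Cdh5 and Kdr were at background in all 14 tumours, Eng in 13 and Tek in 2, while Pecam1 and Plvap were above it in all 14. The 2 measured erythroid markers were at background in all tumours.

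Among genes of other function, the pattern of Cd4 was most like that of Nr3c1, which encodes the glucocorticoid receptor (Pearson r = 0.935 and Spearman rho = 0.873 over 14 tumours, the highest r of 7322 genes searched). Nr3c1 was 13.12, 12.08, 12.39, 11.55 and 13.31 in Hif1a+/- tumours 1 to 5. It was 12.41, 12.27, 11.83 and 12.21 in Hif1aKI/+ tumours 1, 3, 4 and 5, and 11.54, 11.92, 11.90, 12.78 and 12.24 in Hif1a+/+ tumours 1 to 5. Hif1a+/- tumours 1 and 5 were the 2 highest for both genes, and Hif1a+/- tumour 4 and Hif1a+/+ tumour 1 the 2 lowest. Next came the anion exchanger gene Slc4a2 (r = 0.883), then Tspyl4 (0.859), Mdp1 (0.859) and the phospholipase gene Pla2g6 (0.853). The genes most like Cd8a were the flippase gene Atp11a (r = 0.851), the fatty aldehyde dehydrogenase gene Aldh3a2 (0.841), the serine racemase gene Srr (0.835), the dystonin gene Dst (0.809) and Tmem179b (0.808). Those most like Cd3e were Rab14 (0.867), Taok3 (0.846), the chromatin remodeller gene Smarca4 (0.802), Raver1 (0.801, with a rho of 0.424) and the endothelial gene Plvap (0.783). Each was picked as the highest of 7322 correlations over 14 arrays, so these coefficients describe the series and carry no p.

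The rest of the receptor pathway showed no genotype difference that passed either (0 of 21 kinases, adaptors and other positive regulators and 0 of 14 inhibitors in limma, in each comparison). Of the 21, 3 had a mean at background and still enter the counts of direction below. Plcg1 (2.05 to 2.10) and Nfatc2 (2.05 to 2.42) were at background in all 14 tumours and Txk in 13. Flat levels at the floor of the scale may be those of probe sets without signal and do not show that the genes were silent. Hif1a+/- levels exceeded Hif1a+/+ levels for 16 of the 21, with an unadjusted p under 0.05 for 3, where 46.2% of all genes were higher and 441 of 10254 were so at that p, with a median difference of 0.40 beside -0.00 over all genes and a lowest adjusted p of 0.525. In Hif1aKI/+ against the same Hif1a+/+ tumours 12 were higher, 1 at an unadjusted p under 0.05 (median 0.10), beside 47.7% and 279 of 10254 over all genes. In Hif1a+/- against Hif1aKI/+ tumours 15 were higher (median 0.34), the unadjusted p being under 0.05 for 1 of these and for 1 that was lower, beside 46.9% higher and 145 higher and 169 lower at that p over all genes. Cd28, the main costimulatory receptor of T cells, averaged 11.47 ± 0.56 in Hif1a+/- tumours (SD, n = 5), 11.47 ± 0.74 in Hif1aKI/+ tumours (SD, n = 4) and 10.26 ± 0.89 in Hif1a+/+ tumours (SD, n = 5). Its differences from Hif1a+/+ were 1.21 (limma adjusted p = 0.540) and 1.22 (adjusted p = 0.984), and its lowest tumour was Hif1a+/+ tumour 1 at 8.72. Bcl10, an adaptor between the receptor and NF-kappaB, differed by 0.48 between Hif1a+/- and Hif1a+/+ tumours (adjusted p = 0.525) and by 0.38 between Hif1a+/- and Hif1aKI/+ tumours (adjusted p = 1). The phosphatase gene Ptprc (-0.28) and the kinase gene Prkcq (0.77) had an unadjusted p of 0.0325 and 0.0375 between Hif1a+/- and Hif1aKI/+ tumours and did not pass (adjusted p = 1 for both).

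Of the 14 inhibitors 7 were higher in Hif1a+/- than in Hif1a+/+ tumours (median 0.09), 9 in Hif1aKI/+ than in Hif1a+/+ tumours (median 0.16) and 6 in Hif1a+/- than in Hif1aKI/+ tumours (median -0.11), and 0 stood at an unadjusted p under 0.05. The 4 of smallest p were the adaptor genes Sla2 (0.82 for Hif1a+/- minus Hif1a+/+), Pag1 (-0.26) and Sit1 (0.91) and the checkpoint receptor gene Ctla4 (2.25), with adjusted p-values of 0.626 to 0.795. Ctla4 was at background in 9 tumours and at 11.38, 10.38 and 8.31 in Hif1a+/- tumour 4, Hif1aKI/+ tumour 1 and Hif1aKI/+ tumour 4. Of 4 measured genes induced by receptor signalling, Egr1, Egr2, Nr4a1 and Irf4, 0 passed or stood at an unadjusted p under 0.05 (limma lowest adjusted p = 0.806 for Hif1a+/- minus Hif1a+/+).

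Stage genes placed the CD4 and CD8 levels beside other thymocyte RNA. Rag1, the recombinase active when thymocytes rearrange their receptor genes, ran from 12.06 to 14.11 and Dntt, which adds bases at the joins, from 10.28 to 14.07, all above background. Of 5 double-positive stage genes 5 were higher in Hif1a+/- and 5 in Hif1aKI/+ tumours than in the same 5 Hif1a+/+ tumours, where 46.2% and 47.7% of all genes were. The median differences were 0.12 and 0.32, beside -0.00 over all genes, and 0 passed or stood at an unadjusted p under 0.05 (limma lowest adjusted p = 0.690 and 0.984). For Hif1a+/- minus Hif1a+/+ they ran from 0.05 for Rag1 to 0.95 for Dntt, whose lowest level of 10.28 was that of Hif1a+/+ tumour 4. The recombinase partner gene Rag2 ran from 5.74 to 11.99 and Arpp21 from 10.70 to 12.72. The 6 measured genes of the mature stage were split. S1pr1, the receptor mature thymocytes need to leave the thymus, lay flat at the floor of the scale (2.01 to 2.04), and the homing receptor gene Ccr7 and the transcription factor gene Klf2 were at background in 12 tumours each. The cytokine receptor gene Il7r (6.67 to 12.93), the integrin gene Itgb7 (4.82 to 9.69) and the MHC class I gene H2-K1 (10.87 to 12.55) were above background in all 14. None of the 6 passed in any comparison, and Klf2 alone stood at an unadjusted p under 0.05 (Hif1a+/- against Hif1a+/+, adjusted p = 0.610), with a Hif1a+/- mean of 3.95 at background, so no size is given. Of 7 genes of the earlier double-negative and pre-receptor stage 0 passed in any comparison. Among these 7, Kit was at background in all 14 tumours and still enters the counts of direction. Against Hif1a+/+ tumours 5 of the 7 were lower in Hif1a+/- tumours, 4 at an unadjusted p under 0.05 (Il2ra, Ptcra, Hes1 and Dtx1, limma lowest adjusted p = 0.517), where 373 of 10254 genes were. In Hif1aKI/+ tumours 6 of the 7 were lower than in these same Hif1a+/+ tumours, 1 at an unadjusted p under 0.05 (Il2ra, adjusted p = 0.984), where 167 of 10254 genes were. In Hif1a+/- against Hif1aKI/+ tumours 4 of the 7 were lower, 1 at an unadjusted p under 0.05 (Ptcra, adjusted p = 1), where 169 of 10254 genes were.

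Il2ra, for the interleukin 2 receptor alpha chain CD25, was 6.29, 2.12, 3.00, 3.24 and 2.13 in Hif1a+/- tumours 1 to 5. It was 2.13, 2.15, 2.13 and 3.22 in Hif1aKI/+ tumours 1, 3, 4 and 5, and 6.90, 8.26, 11.42, 9.93 and 2.14 in Hif1a+/+ tumours 1 to 5. It was at background in 9 tumours and above it in Hif1a+/- tumour 1 and Hif1a+/+ tumours 1 to 4. The tumours with Il2ra above background were also the lowest of the series for Cd8b1 (10.12 to 10.95). All tumours at background for Il2ra had Cd8b1 at 11.58 or more, among them Hif1a+/+ tumour 5 at 11.62. Most tumours with Il2ra were Hif1a+/+, so genotype and Il2ra level largely went together and were not separated for Cd8b1. They parted in Hif1a+/- tumour 1 (Il2ra 6.29, Cd8b1 10.93) and Hif1a+/+ tumour 5 (Il2ra 2.14, Cd8b1 11.62). The relation of Il2ra with Cd8b1 was not tested. Hes1 and Dtx1, targets of Notch signalling, were at background in 5 and 2 tumours and reached 9.02 and 12.76. Ptcra, for the pre-receptor alpha chain, was 9.78, 9.52, 12.74, 12.12 and 8.61 in Hif1a+/- tumours 1 to 5. It was 12.37 to 12.72 in Hif1aKI/+ tumours and 11.64 to 13.19 in Hif1a+/+ tumours. The 2 tumours highest for Cd4 (Hif1a+/- tumours 1 and 5) were thus among the 3 lowest for Ptcra. Hif1a+/- tumour 2, also among these 3, had Cd4 at 10.57, and Hif1a+/- tumour 3, next highest for Cd4 at 11.69, had Ptcra at 12.74. A relation of Cd4 with Ptcra was not tested.

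The regulators of the choice between CD4 and CD8 gave 0 passing genes of 12 measured and 0 at an unadjusted p under 0.05 (limma lowest adjusted p = 0.679 for Hif1a+/- minus Hif1a+/+). Zbtb7b, the CD4 lineage factor ThPOK, was between 2.01 and 2.02 and Runx3, the CD8 lineage factor, between 1.99 and 2.09, both at background in every tumour, including those highest for Cd4. Ikzf1, a factor of all lymphocytes, was at background in all 14 tumours as well, so a flat level at the floor of the scale may be that of a probe set without signal. The regulators of smallest p beside Ikzf1 were Lef1 (-1.22 for Hif1a+/- minus Hif1a+/+, adjusted p = 0.679), Bcl11b (0.10, adjusted p = 0.990), a factor of T lineage commitment, and Tcf12 (0.06, adjusted p = 0.919). Gata3, required for CD4 cells, ran from 8.51 to 11.62, Satb1, a chromatin organiser of thymocytes, from 13.02 to 13.79, and Tox, needed for CD4 lineage cells, from 6.59 to 11.09.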

How the data were processed

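The authors deposited 1 log2 value per probe set and array. Per the submitters' processing notes GCRMA and Partek were used, without versions. Per the labels, total RNA (100 ng) was copied to cRNA, then to biotin-labelled cDNA. No genome build is named for the array values, and promoter sequences came from a RefSeq table of GRCm38.p6. Raw intensities were not used here, and precision is limited by the array count.

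Of 18264 probe sets, 16602 named 1 gene in the platform annotation, 603 several and 1059 none. The probe set of highest mean stood for a gene. Genotype means were estimated from the 14 arrays for 10254 genes with limma 3.58.1 in R 4.3.3 (lmFit, eBayes), two-sided, adjusted by Benjamini-Hochberg over all genes, threshold 0.05. Intervals are at 95%. The fit was tested on simulated data. Correlations used 100000 permutations (two-sided, seeded, Python 3.11.15). The labels call the samples biological replicates. Same-numbered arrays did not deviate together (residual correlations -0.109 to 0.141 over 13 pairs).

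The genes and lists were chosen with earlier results of these data known. Named were the 10 genes, the 4 genes of smallest F test p in each list, any that passed, and the 5 genes most correlated with Cd4, Cd8a and Cd3e. Other genes are named as level examples, chosen after their values were seen. Alternatives covered filtering, normalization, moderation, weights, probe set choice, pairing and leaving out arrays.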

Additional observations from a re-analysis of the deposited data

Results flagged for a closer look

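In 3 of 48 groups of values (16 probe sets in 3 genotypes) 1 tumour stood apart from the others by Dixon's criterion, which chance gives in about 1 group in 20. Cd3e was 13.48 in Hif1a+/+ tumour 5, where the next highest Hif1a+/+ tumour was at 12.91. The second Cd247 probe set was 8.43 in the same tumour, with the next at 7.33. Cd8b1 was 12.27 in Hif1aKI/+ tumour 4, with the next at 11.68.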

How the results depend on the processing

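None of the 30 differences of the 10 genes passed under any alternative run (smallest adjusted p = 0.29), and 13 changed sign under at least 1. Genes past the threshold between Hif1a+/- and Hif1a+/+ tumours numbered 2 in the reported fit, 0 with the level filter, quantile normalization, median centring, those 2 genotypes alone, single probe sets or the replicate block, 1 with the trended and robust fit, and 0 to 1 with 1 array left out. Leaving out 1 array gave 0 to 2 between Hif1aKI/+ and Hif1a+/+ tumours, 0 to 1 between Hif1a+/- and Hif1aKI/+ tumours and 0 to 1 for any difference, against 0 with all arrays. The sign turned as follows, and the cause was not tested. With the mean of all probe sets, Zap70 was -0.032 (Hif1a+/- minus Hif1a+/+) and -0.086 (Hif1aKI/+ minus Hif1a+/+) and Cd4 -0.55 (Hif1aKI/+ minus Hif1a+/+). For Hif1aKI/+ minus Hif1a+/+, Cd3e was 0.0045 with quantile normalization, Zap70 -0.0080 with centring, and Cd4 -0.022 with array weights and -0.10 with the replicate block. For Hif1a+/- minus Hif1aKI/+, Cd247 was -0.0099 with quantile normalization, -0.0089 with centring and -0.10 with the replicate block. With 1 array left out, Lat ran from -0.0030 to 0.18 for Hif1a+/- minus Hif1a+/+. For Hif1aKI/+ minus Hif1a+/+, Cd3d ran from -0.062 to 0.20, Cd3e from -0.13 to 0.10, Cd3g from -0.0015 to 0.40, Cd4 from -0.32 to 0.24 and Zap70 from -0.18 to 0.28. For Hif1a+/- minus Hif1aKI/+, Cd3g ran from -0.014 to 0.26, Cd247 from -0.20 to 0.14, Cd8a from -0.11 to 0.060, Cd8b1 from -0.29 to 0.053, Zap70 from -0.17 to 0.29 and Lat from -0.15 to 0.068. Cd8b1 kept its sign against Hif1a+/+ (0.69 to 1.06 for Hif1a+/- and 0.82 to 1.20 for Hif1aKI/+). The correlation of Cd8a with Cd8b1 was 0.63 with quantile normalization (adjusted permutation p = 0.0522), 0.58 with genotype means subtracted and 0.55 to 0.75 with 1 array left out. That of Cd3e with Cd247 was 0.14 with the mean of probe sets, 0.074 with genotype means subtracted and -0.20 to 0.52 with 1 array left out. That of Zap70 with Lat was -0.0022 with quantile normalization, -0.43 with the mean of probe sets and -0.20 to 0.24 with 1 array left out, and that of Thy1 with Cd3e was -0.0077 with genotype means subtracted and -0.050 to 0.34 with 1 array left out. Cd3d with Cd3g ran from 0.80 to 0.93 with 1 array left out. Tumours low for Cd4 numbered 7 as reported, 11 with the mean of both probe sets and 2 with the limit at 3, and those low for Cd8b1 1 as reported and 0 with the limit at 3. Replicate numbers did not pair the arrays. Signal near background limits the Cd4, Cd247 and Zap70 probe sets of lowest mean.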
